A study of Mus musculus with 2 samples.

Results

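Among mouse tumour cells gated on CD45 and JAML, 1 of the authors' subclusters mixes cells that carry transcripts of the CD3 complex with cells that carry almost none. The subcluster is number 3 at the authors' clustering resolution of 0.8 and holds 632 of the 5976 cells in the matrix. Its cells were chosen by a measured value, their summed UMIs (unique molecular identifiers, 1 per captured RNA molecule) of Cd3d, Cd3e and Cd3g, so the levels of these 3 genes are a description. The 543 cells with a sum of 5 or more are called CD3-rich here, the 77 cells with a sum of 0 or 1 CD3-poor, and the 12 cells in between were set aside. Together the classes hold 620 cells. The working name of the second class was CD3-free, but 22 of its 77 cells had 1 CD3 UMI, so CD3-poor is used.

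The data come from 1 gene expression library made with 10x Genomics 5' chemistry. Hashtag antibodies assign its cells to 3 mice, whose hashtag names read B16F10 (a mouse melanoma line) and isotype control, numbered I to III. All 3 mice therefore belong to 1 group, and both classes come from the same sort. Strain, sex, age and tumour site are not given in the sources used here. In the labels the gated cells go by the name of T cells, and the extraction protocol also uses the word TREG. Mice 1, 2 and 3 gave 249, 107 and 187 CD3-rich and 36, 13 and 28 CD3-poor cells, and no cell barcode occurred more than once. P-values rest on how the difference between the classes varied over these 3 mice, with variance estimates that borrow from all tested genes. Differences between the mice themselves were taken up by a term for the mouse.

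The CD3 chains carry the signal of the T cell receptor into the cell, whether that receptor is an alpha-beta or a gamma-delta heterodimer. Natural killer (NK) cells and type 1 innate lymphoid cells have no rearranged T cell receptor and use activating receptors such as NKp46, encoded by Ncr1, which signal through small adaptors encoded by Tyrobp, Fcer1g and Cd247. Some T cells carry NK receptors as well, so a shared NK receptor program can bring T and NK cells into the same cluster. Unrearranged receptor loci can also be transcribed in NK cells, so a constant-region transcript is not by itself a receptor.

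The CD3 sum left few cells near the borders of the classes. In the subcluster, 55 cells had 0 CD3 UMIs, 22 had 1, 6 had 2, 3 had 4, 3 had 5 and 519 had 10 or more. Just inside the CD3-rich border lay the 24 cells with 5 to 9 UMIs, and the highest sum was 89. In mouse 1 the CD3-rich cells had a median sum of 26 UMIs, in mouse 2 of 22 and in mouse 3 of 19. CD3-poor cells were not the shallower class, with a median of 10621 UMIs per cell in all against 8755. Their median was 12776.5 against 9703 UMIs in mouse 1, 14294 against 8436 in mouse 2 and 8194 against 7809 in mouse 3. Mitochondrial UMIs had a median of 2.15% per CD3-poor and 2.72% per CD3-rich cell, and ribosomal protein UMIs 27.3 and 31.0%. The 3 genes that made the classes lie side by side on chromosome 9 of mm10 (GENCODE M21), Cd3g from 44969572 to 44980431, Cd3d from 44981786 to 44987339 and Cd3e from 44998740 to 45009627. They were left out of every test.

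**Figure D1:**
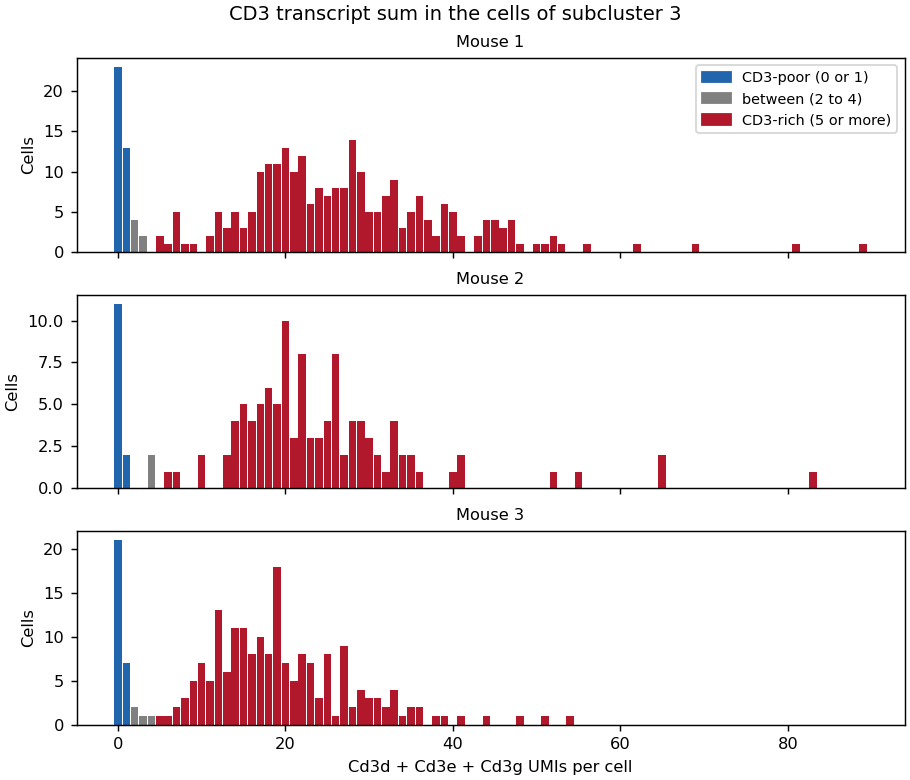
Histograms of summed Cd3d, Cd3e and Cd3g UMIs per cell (x axis) against the number of cells (y axis, a separate scale for each mouse) in subcluster 3. Blue bars are CD3-poor, grey bars set aside and red bars CD3-rich cells; in all 3 mice few cells lie between the peak at 0 and the broad CD3-rich distribution.

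Genes of the T cell receptor and of T cell identity were higher in CD3-rich cells, and genes of NK identity, innate adaptors and cytotoxicity were higher in CD3-poor cells. Summed per mouse and class, 397 of 6766 tested genes (5.87%) differed at an adjusted p under 0.05, 185 higher (2.73%) and 212 lower (3.13%) in CD3-rich cells. Classes that did not overlap over the mice were found for 23.3% of tested genes (10.7% higher and 12.6% lower), the background for the same statement about single genes below. Levels are UMIs scaled to a fixed total per class and mouse (CPM), and they are given for mice 1, 2 and 3 in that order unless stated. Fold changes are log2, CD3-rich minus CD3-poor, with a standard error (SE). That SE is the absolute fold change divided by the square root of the F statistic of its test. It was not estimated apart from the test. Without mouse 1, 32 genes were higher and 67 lower, without mouse 2 241 and 250, and without mouse 3 99 and 122. DESeq2 called 61 higher and 113 lower. Ribosomal protein genes were higher in 21 of 87 tested cases and lower in 1, with a median of 0.21.

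Stretches of 250 bases before the annotated transcription start are shown for 1 gene of each side, to let the members that stand for T cell and NK identity be read as sequence. They are Cd5, a T cell surface protein that dampens receptor signalling, and Ncr1; both were chosen after their values were seen. The sequences are RefSeq's on GRCm38.p6, 5′ to 3′ on the gene's strand. Capitals mark 2 matches to AGGAAG, a core bound by ETS factors, in Cd5 (chr19:10738975-10739224, minus strand) and 2 matches to TGTGGT, a core bound by RUNX factors, in Ncr1 (chr7:4337465-4337714, plus strand, the first of 2 starts listed). The other motifs searched were CTTTGA (TCF/LEF) and GGTGTGA (T-box), all on both strands, and neither sequence holds those letters. The motifs do not overlap in either sequence.
Cd5: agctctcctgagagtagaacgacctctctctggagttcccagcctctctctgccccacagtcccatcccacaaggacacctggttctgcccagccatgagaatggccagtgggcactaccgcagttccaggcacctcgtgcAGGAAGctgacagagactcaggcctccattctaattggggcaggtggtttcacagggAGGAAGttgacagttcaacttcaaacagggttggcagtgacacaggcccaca
Ncr1: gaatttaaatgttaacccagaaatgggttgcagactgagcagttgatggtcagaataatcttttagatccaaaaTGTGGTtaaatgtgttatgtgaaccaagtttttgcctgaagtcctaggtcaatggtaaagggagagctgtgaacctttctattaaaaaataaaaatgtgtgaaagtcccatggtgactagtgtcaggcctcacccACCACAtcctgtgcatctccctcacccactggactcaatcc
Of 32851 such stretches, 29.5% hold AGGAAG, 14.1% TGTGGT, 13.8% CTTTGA and 3.33% GGTGTGA on either strand. A match describes the letters only and shows no binding.

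The alpha-beta receptor constant genes were all higher in CD3-rich cells, but by very unequal amounts. Trac, the alpha-chain constant gene (chromosome 14, 54220521 to 54224206), stood at 378, 460 and 453 CPM in CD3-rich and at 15.4, 0 and 11.8 CPM in CD3-poor cells. All CD3-rich values lay far above all CD3-poor values, and the log2 difference was 5.20 ± 0.31 (SE, adjusted p = 4.7e-08), or 6.11 without mouse 1. A Trac UMI was found in 77.0% of CD3-rich and 13.0% of CD3-poor cells. With all cells thinned to 6201 UMIs the shares were 72.0 and 4.23%. Free RNA in droplets can give UMIs in cells that do not express a gene, and the share it gives is not reported here, so a low share is not read as expression.

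Beta-chain constant RNA did not separate the classes in the same way. Trbc2 (chromosome 6, 41546730 to 41548352) had 1687, 1897 and 1605 CPM in CD3-rich and 386, 383 and 397 CPM in CD3-poor cells, without overlap, and rose by 2.19 ± 0.12 (adjusted p = 4.1e-08). Trbc1, the neighbouring copy (41538218 to 41539881), had 850, 863 and 795 against 515, 444 and 699 CPM. That difference was 0.65 ± 0.15 (adjusted p = 0.014), a call kept in 15 of 19 alternatives. It was lost, among others, without mouse 1 (0.62, adjusted p = 0.38) and in thinned cells. A Trbc1 UMI was in fact more frequent among CD3-poor cells, at 94.8% against 67.4% of CD3-rich cells, with a median of 7 against 3 UMIs per cell, and after thinning at 87.3 against 63.8%. Trbc2 UMIs were found in 97.6% of CD3-rich and 68.8% of CD3-poor cells, and after thinning in 96.9 and 59.2%. The constant genes are close copies, and how the authors' counting treated reads that fit both is not given in the sources used here.

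Rearranged chains leave UMIs on V segments, which were sparse. An alpha V segment UMI was found in 83 of 543 CD3-rich cells and a beta V segment UMI in 112, over 38 alpha and 18 beta segments in the matrix. Among the 77 CD3-poor cells none had either, which allows a share of cells with a UMI of up to 3.90%. Delta V segment UMIs were not absent there, with 12 of 77 CD3-poor (15.6%) and 51 of 543 CD3-rich cells (9.39%). Mice 1, 2 and 3 gave 7, 2 and 3 of these CD3-poor and 29, 11 and 11 of these CD3-rich cells. The 95% intervals of the shares are 8.32 to 25.6% and 7.07 to 12.2%. They pool the cells of all mice and cover counting error only, and the difference was not tested. Trdv4 UMIs were found in 10 of 77 CD3-poor (13.0%) and 11 of 543 CD3-rich cells (2.03%). Gamma V segment UMIs were found in 4 CD3-poor and 169 CD3-rich cells. The delta V genes were too low to test.

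Tested gamma-delta receptor genes were also higher in CD3-rich cells, with 1 exception, and 4 of 5 tested members of their list of 15 passed. Trdc, the delta constant gene (chromosome 14, 54142851 to 54148868), had 330, 403 and 203 CPM in CD3-rich and 22.2, 38.8 and 31.4 CPM in CD3-poor cells. The classes did not overlap, at a log2 difference of 3.48 ± 0.24 (adjusted p = 1.9e-07). A Trdc UMI was found in 28.4% of CD3-rich and 26.0% of CD3-poor cells, and after thinning in 27.2 and 18.3%. The amount per cell was 3.01 against 0.364 UMIs on average. At least 2 Trdc UMIs were found in 141 of 543 CD3-rich but 7 of 77 CD3-poor cells, whose highest value was 3 UMIs against 61.

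The gamma constant genes behaved unequally. Tcrg-C1 had 53.1, 83.0 and 26.1 CPM in CD3-rich and 1.71, 0 and 0 CPM in CD3-poor cells, a rise of 5.60 ± 0.62 (adjusted p = 2.5e-05) that was 8.24 without mouse 1. Tcrg-C2 had 91.8, 107 and 67.1 against 3.42, 0 and 0 CPM, a rise of 5.47 ± 0.50 (adjusted p = 3.2e-06) that was 9.01 without mouse 1. The CD3-poor values of these 2 genes rest on 1 and 2 UMIs, so the size of each difference is poorly bounded. Tcrg-C4 had 70.8, 85.0 and 64.0 CPM in CD3-rich and 76.9, 77.7 and 39.3 CPM in CD3-poor cells. These values overlapped, at 0.18 ± 0.23 (adjusted p = 0.76), and the value was -0.94 (adjusted p = 0.036) when cells with any Trdc UMI were left out, which removed mouse 2. Tcrg-C4 UMIs were found in 34.6% of CD3-rich and 37.7% of CD3-poor cells, and in 28.6 and 32.4% after thinning. The V segment gene Trgv2 had 224 UMIs in CD3-rich and 0 in CD3-poor cells, at least 14.2-fold higher against a floor of 3 UMIs over the class.

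**Figure D2:**
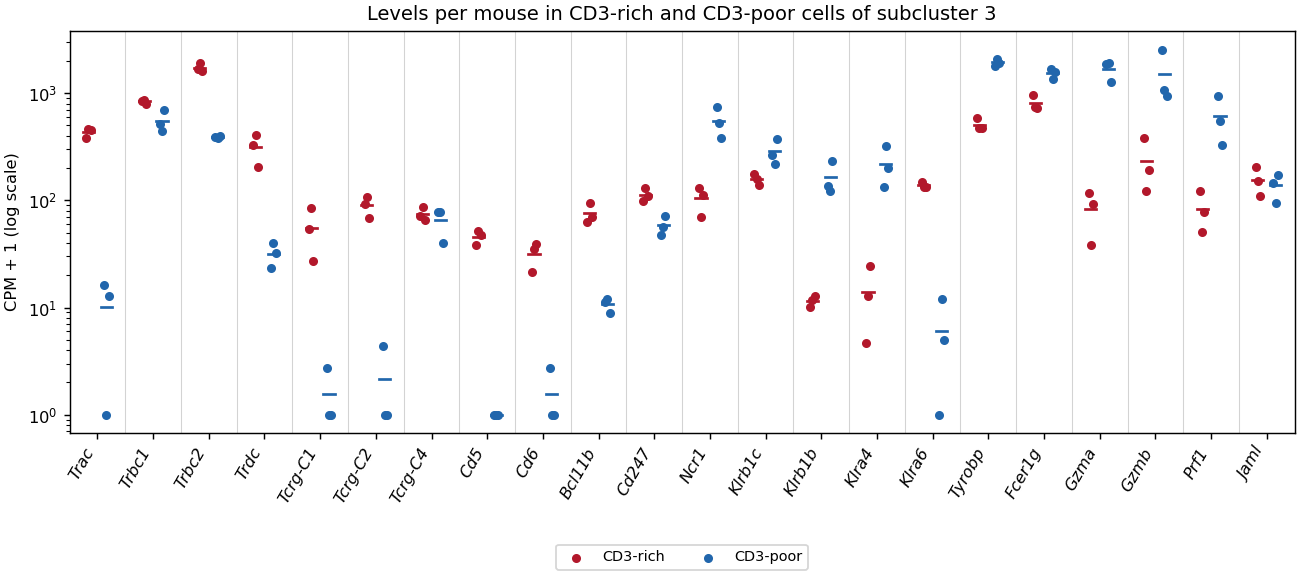
Levels of receptor, T cell and NK genes in CPM plus 1 (log axis) for each mouse, red for CD3-rich and blue for CD3-poor cells, with the mean of 3 mice as a bar. Tcrg-C1, Tcrg-C2 and Cd5 are near 0 in CD3-poor cells, and Trac is low there at 15.4, 0 and 11.8 CPM. Trbc1, Tcrg-C4 and Jaml lie close together in the classes.

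Beyond the receptor itself, 18 of 32 tested genes of T cell receptor signalling and T cell identity were higher and 1 was lower, with a median log2 difference of 0.74 against 0.01 over all tested genes. Cd5 (chromosome 19, 10717116 to 10739002) had 37.2, 50.8 and 46.6 CPM in CD3-rich cells and 0 UMIs in every mouse's CD3-poor cells. Its 228 UMIs make it at least 14.5-fold higher (adjusted p = 0.00011). Cd6, a related surface protein, had 20.6, 34.2 and 37.9 against 1.71, 0 and 0 CPM (4.69 ± 0.73, adjusted p = 0.00075, and 7.82 without mouse 1), a CD3-poor level that rests on 1 UMI. Bcl11b, a transcription factor needed for T cell commitment, had 61.2, 93.8 and 69.6 against 10.3, 11.1 and 7.86 CPM, without overlap (2.86 ± 0.34, adjusted p = 5.1e-05).

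Lat, the scaffold that links the receptor to its signalling enzymes, was higher by 1.60 ± 0.23 (adjusted p = 0.00042). Cd247, which encodes the zeta chain used by T cell receptors and NK receptors alike, had 97.3, 129 and 108 against 46.2, 55.5 and 70.7 CPM, a rise of 1.00 ± 0.22 (adjusted p = 0.0097) that was not past the threshold without mouse 1, by DESeq2, at matched depth, in thinned cells or without cells with UMIs of other cell types. The exception in the list was Sh2d2a, a T cell adaptor gene, at -0.68 ± 0.17 (adjusted p = 0.025), a call kept in 11 of 19 alternatives and lost, among others, by DESeq2, without mouse 1 and without mouse 3. Sit1, a transmembrane adaptor of T cells, had 125 UMIs in CD3-rich and 0 in CD3-poor cells, at least 7.95-fold higher.

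Coreceptor genes were low in CD3-rich cells too. Cd8a had 58.2, 52.7 and 42.8 CPM in CD3-rich and 6.84, 11.1 and 7.86 CPM in CD3-poor cells, a rise of 2.78 ± 0.39 (adjusted p = 0.00025), not past the threshold without mouse 1 (2.40, adjusted p = 0.085). Cd8b1 rose by 1.78 ± 0.40 (adjusted p = 0.013). Its call was kept in 9 of 16 alternatives and lost, among others, without mouse 1, without mouse 3 and by DESeq2. In subcluster 1, a CD8-bearing subcluster used here as an untested level, the means were 670 CPM for Cd8a and 877 CPM for Cd8b1. Cd4 was too low to test, with 7 UMIs in the CD3-rich and 6 in the CD3-poor cells. Of CD3-rich cells 385 of 543 (70.9%) had no UMI of Cd4, Cd8a or Cd8b1, against 25 of 785 (3.19%) in subcluster 1, at median depths of 8755 and 8550 UMIs per cell.

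Genes of recirculation and memory were higher in CD3-rich cells in 10 of 12 tested cases and lower in none, with a median of 1.53. S1pr1, the receptor that guides exit from tissue, had 66.0, 87.9 and 89.4 against 1.71, 0 and 3.93 CPM, without overlap (5.24 ± 0.49, adjusted p = 4.3e-06). Lef1 rose by 2.38 ± 0.26 (adjusted p = 2.2e-05) and Tcf7 by 1.54 ± 0.21 (0.00023), both transcription factors of naive and memory T cells. Tcf7 was not past the threshold without mouse 1 (1.49, adjusted p = 0.063). Klf3, a zinc-finger factor, rose by 2.31 ± 0.29 (0.00010), and Il7r, the interleukin 7 receptor, by 1.51 ± 0.25 (0.0011), the latter not without mouse 1. Klf2, which controls S1pr1, overlapped between the classes at 616, 894 and 1391 against 195, 289 and 982 CPM (1.26 ± 0.19, adjusted p = 0.00056), and its call was lost without mouse 1 and without the mouse as a block.

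Ikzf2, which encodes the transcription factor Helios, was higher in CD3-rich cells of every mouse. It had 555, 589 and 554 CPM in CD3-rich and 71.8, 88.8 and 94.3 CPM in CD3-poor cells. The values of each class lay close together and far from the other class (2.81 ± 0.18, adjusted p = 5.5e-08). In subcluster 1 its mean was 32.2 CPM. Other genes with large rises were Acoxl (163 UMIs against 0, at least 10.4-fold), Il6st, the signal chain of the interleukin 6 receptor (149 against 0, at least 9.47-fold), Dapl1 (97 against 0, at least 6.17-fold), Nsg2 (4.87 ± 0.52), Tmem108 and Actn1, an actin crosslinker (3.52 ± 0.41). Il6st, Sit1 and Tmem108 were not past the threshold without mouse 1. Id3, a factor used by T and gamma-delta T cells, was higher by 2.64 ± 0.54 (adjusted p = 0.0072) and by 8.27 without mouse 1. It was not past the threshold without mouse 3 or by DESeq2.

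NK identity genes went the other way, with 14 of 26 tested members lower in CD3-rich cells, 2 higher and a median of -0.70. Ncr1 (chromosome 7, 4337724 to 4345164), whose upstream stretch is shown above, had 129, 69.4 and 111 CPM in CD3-rich and 747, 527 and 381 CPM in CD3-poor cells. Even the lowest CD3-poor mouse lay above the highest CD3-rich mouse (-2.35 ± 0.20, adjusted p = 1.2e-06). An Ncr1 UMI was found in 72 of 77 CD3-poor cells (93.5%) and in 141 of 543 CD3-rich cells (26.0%), and after thinning in 93.0 and 22.8%. Subcluster 1 had a mean of 0.612 CPM. The 141 CD3-rich cells with Ncr1 had a median of 9468 UMIs and a median CD3 sum of 22, and the 402 without it 8490 UMIs (8489.5) and also 22. At least 10 Ncr1 UMIs were found in 14 CD3-rich cells, which had a higher median of 14582 UMIs and the same median CD3 sum of 22. No doublet caller was run, and the part of doublets was not tested.

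Other NK genes differed in size. Klrb1b, a C-type lectin receptor, had 9.22, 10.7 and 11.8 against 135, 122 and 232 CPM (-3.89 ± 0.24, adjusted p = 4.7e-08), without overlap. Klrb1c, which encodes NK1.1, had 174, 157 and 139 against 265, 216 and 373 CPM, a fall of 0.80 on the log2 scale (SE 0.18, adjusted p = 0.015). The call was kept in 13 of 19 alternatives and lost, among others, without mouse 1, without mouse 3, by DESeq2 and in thinned cells. Klrb1c UMIs were found in 59.1% of CD3-rich and 85.7% of CD3-poor cells, and after thinning in 49.4 and 77.5%. Klrk1, the receptor NKG2D, fell by 0.53 (SE 0.13, adjusted p = 0.019). Its call was kept in 14 of 19 alternatives and lost, among others, without mouse 1, without mouse 3 and by DESeq2. Klrd1, the CD94 chain, was at 0.04 ± 0.13 (adjusted p = 0.91).

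Of the lineage factors, Eomes had 57.1, 41.0 and 53.4 against 115, 122 and 106 CPM (-1.08 ± 0.21, adjusted p = 0.0045). Tbx21, which encodes T-bet, had 42.0, 40.1 and 57.1 against 78.6, 72.1 and 106 CPM (-0.84 ± 0.21, adjusted p = 0.028). Both were without overlap and lower in 3 of 3 mice. The Eomes call was lost without mouse 1, with the CD3-poor class held to 0 UMIs and without cells with a Trdc UMI. The Tbx21 call was kept in 9 of 19 alternatives and lost, among others, without mouse 1, without mouse 3, without the block and by DESeq2. Irf8, a factor of NK and dendritic cells, was at -2.65 ± 0.26 (adjusted p = 6.1e-06). Zbtb16, the factor of invariant NKT cells, was too low to test, with 33 UMIs in CD3-rich and 3 UMIs in CD3-poor cells.

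The Ly49 receptors, encoded by the Klra genes that recognise class I molecules, split in direction. Klra6 had 149, 131 and 133 CPM in CD3-rich and 0, 11.1 and 3.93 CPM in CD3-poor cells, a rise of 5.55 ± 0.48 (adjusted p = 1.7e-06) that was 4.29 without mouse 1 and 6.85 without mouse 2. A Klra6 UMI was found in 249 of 543 CD3-rich and 2 of 77 CD3-poor cells. Klra1 was higher as well, by 2.25 ± 0.26 (adjusted p = 3.4e-05). Klra4 was lower, with 3.69, 11.7 and 23.6 against 132, 322 and 200 CPM (-4.08 ± 0.31, adjusted p = 4.5e-07, and -4.91 without mouse 3), and so was Klra8 (-2.82 ± 0.23, adjusted p = 1.2e-06). Without cells with a Trdc UMI, which removed mouse 2, these 2 genes stood at -2.36 and -1.23. Klra7 overlapped (0.19 ± 0.21, adjusted p = 0.70). Klra genes are close copies, and how reads that fit several of them were counted is not known here. Of Klra4 in CD3-rich cells 88.3% of the UMIs came from 5 cells.

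Innate adaptors and Fc receptors were lower in 7 of 9 tested cases and higher in 1, with a median of -1.57. Tyrobp, the adaptor DAP12, had 580, 474 and 473 against 1809, 2097 and 1910 CPM (-1.89 ± 0.13, adjusted p = 1.8e-07). Fcer1g, the common gamma chain of Fc receptors, had 953, 750 and 722 against 1684, 1370 and 1572 CPM (-0.89 ± 0.12, adjusted p = 0.00014). Both were without overlap, yet neither was low in CD3-rich cells beside subcluster 1, whose means were 84.3 and 99.3 CPM. Lat2, an adaptor of innate cells, was lower (-1.57 ± 0.20), and so was the kinase gene Syk (-2.43 ± 0.44), which lost its call without mouse 1 and without mouse 3. The exception was Hcst, the adaptor DAP10, at 0.65 ± 0.15 (adjusted p = 0.012). Its call was kept in 11 of 19 alternatives and lost, among others, without mouse 1, without mouse 3 and by DESeq2.

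Many CD3-rich cells carried receptor and innate transcripts together. UMIs of Trac, Fcer1g and Klrb1c were found in the same cell in 233 of 543 CD3-rich cells (42.9%), in every mouse. In subcluster 1 this was so for 4 of 785 cells (0.510%). Trac and Fcer1g UMIs together, with Klrb1c left aside, were less particular to the CD3-rich cells. They were found in 375 of 543 CD3-rich (69.1%) and in 237 of 785 subcluster 1 cells (30.2%). Trac and Ncr1 UMIs were found together in 82 CD3-rich cells (15.1%). Subcluster 3 was itself formed on such genes, so these shares describe it and were not tested.

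**Figure D3:**
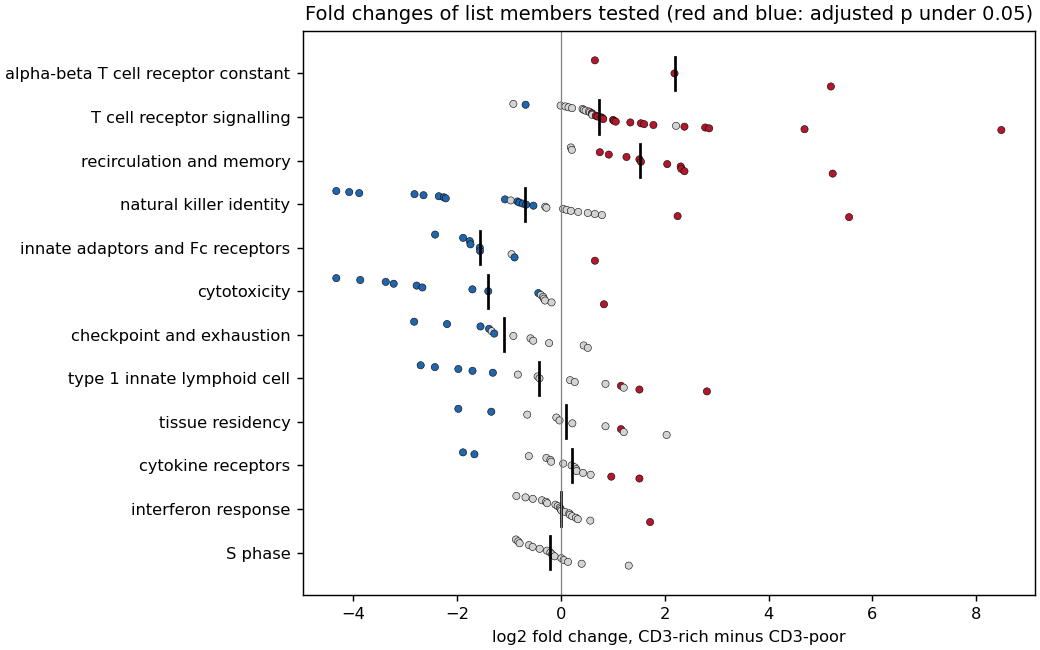
Log2 fold change, CD3-rich minus CD3-poor (x axis), of each tested member of 12 gene lists (y axis). Red and blue points passed an adjusted p of 0.05 and grey points did not, and black bars are list medians; the T cell lists lie mostly to the right of 0 and the NK, adaptor and cytotoxicity lists mostly to the left.

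Cytotoxicity genes were lower in CD3-rich cells in 9 of 15 tested cases and higher in 1, with a median of -1.40. Gzma, a granule protease, had 117, 37.1 and 90.7 against 1882, 1897 and 1273 CPM (-4.33 ± 0.26, adjusted p = 4.7e-08). Gzmb had 379, 122 and 191 against 2556, 1071 and 939 CPM (-2.67 ± 0.16, 4.7e-08), and Prf1, which encodes perforin, 122, 49.8 and 76.4 against 942, 555 and 326 CPM (-2.78 ± 0.21, 4.9e-07). For these 3 genes the classes did not overlap. Of the CD3-poor UMIs, 5 cells held 57.5% for Gzma, 67.3% for Gzmb and 55.9% for Prf1, while 29, 43 and 58 of the 77 cells had any. The exception was the chemokine gene Ccl5, at 4267, 4640 and 5126 against 2221, 2657 and 3352 CPM (0.83 ± 0.09, adjusted p = 2.4e-05).

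Some of the largest falls rest on few cells. Ccl1, a chemokine gene, had 3.69, 3.91 and 3.11 against 1462, 344 and 377 CPM (-7.76 ± 0.30, adjusted p = 4.3e-10, and -6.59 without mouse 1), but 5 CD3-poor cells held 98.8% of its 1013 UMIs and 67 had none. Spp1, the matricellular protein osteopontin, overlapped between the classes (-4.48 ± 0.28, and -3.21 without mouse 1), and 95.1% of its CD3-poor UMIs came from 5 cells. For Gzmc, a granzyme gene, the levels were 1152, 24.4 and 96.9 against 4600, 3462 and 566 CPM, which overlap, and 5 cells held 84.8% of the CD3-poor and 86.3% of the CD3-rich UMIs. Its value was -3.38 ± 0.60 (adjusted p = 0.0026), -4.54 without mouse 1 and -2.16 without mouse 2. The call was lost without mouse 3, without the mouse as a block and by DESeq2. In Serpinb9b (-5.70 ± 0.58), a protease inhibitor gene, 5 cells held 98.9%, and the call was lost without mouse 1 (-3.58) and stood at -7.32 without mouse 3. In Csf2 (-3.08 ± 0.26), which encodes GM-CSF, 5 cells held 92.8%, and in Pdgfa (-4.81 ± 0.43), a growth factor gene, 92.0%.

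Chemokine genes with wider detection were Xcl1 and Ccl4. Xcl1, which attracts type 1 dendritic cells, had 1275, 733 and 889 against 3602, 3761 and 4141 CPM (-1.98 ± 0.14, adjusted p = 2.7e-07) and was found in 82.1% of CD3-rich and 94.4% of CD3-poor cells after thinning (85.5 and 98.7% before). Ccl4 was at -3.87 ± 0.16 (adjusted p = 5.8e-10), with 72.6% of its CD3-poor UMIs in 5 cells. Ccl3 was at -3.22 ± 0.29 (adjusted p = 3.2e-06), -2.58 without mouse 1 and -3.82 without mouse 3, with 74.5% in 5 cells. Of 11 tested chemokine and chemokine receptor genes 6 were lower and 4 higher. Ccr2, the receptor of monocyte chemoattractants, was lower (-2.32 ± 0.17, adjusted p = 2.7e-07). Vegfa, a vascular growth factor gene, was at -3.64 ± 0.49 (adjusted p = 0.00021), -4.87 without mouse 1 and -2.39 without mouse 3.

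Type 1 innate lymphoid cell genes gave no single direction, with 5 of 15 tested members lower and 3 higher (median -0.41). Tmem176a and Tmem176b were lower by 2.70 and 2.43 on the log2 scale in CD3-rich cells (log2 values -2.70 ± 0.22 and -2.43 ± 0.18). Kit, the stem cell factor receptor gene, was at -1.71 ± 0.29 (adjusted p = 0.0018), not past the threshold without mouse 3 or at matched depth. Cd69, an early activation and retention marker, was higher at 395, 391 and 446 against 183, 166 and 220 CPM (1.16 ± 0.15, adjusted p = 0.00016), a call lost when depth was matched (0.21). Itga1, the CD49a chain, was at 1.21 ± 0.37 (adjusted p = 0.073), and Cxcr6 at 0.86 ± 0.24 (adjusted p = 0.051).

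Among 12 tested checkpoint genes 5 were lower and none higher. The costimulatory receptor gene Tnfrsf9 was at -2.20 ± 0.26 (adjusted p = 4.6e-05), Nrgn, a calmodulin-binding protein gene, at -2.83 ± 0.27 (5.9e-06) and Bhlhe40, a transcription factor gene, at -1.39 ± 0.20 (0.00046). No gene of S phase passed among 15 tested, and of 19 interferon response genes 1 was higher, Ifi27l2a (1.72 ± 0.17, adjusted p = 1.1e-05). Ifng, the interferon gamma gene, overlapped at 101, 105 and 186 against 157, 94.3 and 267 CPM (-0.39 ± 0.18, adjusted p = 0.28).

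Jaml, the gene of the receptor used for sorting, did not differ past the threshold. It had 202, 150 and 108 CPM in CD3-rich and 145, 94.3 and 173 CPM in CD3-poor cells, which overlap (0.20 ± 0.22, adjusted p = 0.71), and the value was -0.03 without mouse 1. After thinning, a Jaml UMI was found in 54.9% of cells of each class.

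Among the lists of markers of other cell types, the conventional dendritic cell list was lower in CD3-rich cells. In the plasmacytoid dendritic cell list 1 of 4 tested genes was lower. The conventional dendritic cell markers were lower in CD3-rich cells for 5 of 5 tested genes of a list of 13, with a summed level of 805 to 1197 CPM in CD3-rich and 947 to 6496 CPM in CD3-poor cells. The class II genes H2-Ab1, H2-Aa and H2-Eb1 and the invariant chain gene Cd74 overlapped between the classes, and 5 cells held 80.6, 85.3, 82.1 and 80.4% of their CD3-poor UMIs. At least 20 UMIs of the 3 class II genes were found in 8 CD3-poor and 3 CD3-rich cells. Without these 11 cells, a rule chosen after the data were seen, 160 genes were higher and 152 lower, 134 and 144 of them the same genes as before. H2-Ab1 and H2-Aa, which entered the rule, then stood at 0.05 and 0.20, so their shift follows in part from the selection. Without mouse 1, by DESeq2 and with the CD3-poor class held to 0 UMIs, H2-Ab1, H2-Aa, H2-Eb1 and Cd74 lost their calls. Without mouse 3 H2-Aa, H2-Eb1 and Cd74 stood at -2.54, -2.53 and -2.54. Itgax, the CD11c chain that NK cells also carry, had 11.1, 10.7 and 11.8 against 80.3, 99.9 and 62.9 CPM (-2.76 ± 0.28, adjusted p = 1.2e-05), without overlap. Of the plasmacytoid dendritic cell list of 10 genes, 4 were tested and 1 was lower, Tcf4, a transcription factor gene. Tcf4 had 16.6, 10.7 and 9.94 against 49.6, 33.3 and 82.5 CPM, without overlap (-2.01 ± 0.34, adjusted p = 0.0017), a call lost without mouse 3 (-1.54). Its UMIs were found in 44 of 543 CD3-rich and 34 of 77 CD3-poor cells, and the whole list summed to 288 to 382 CPM in CD3-rich and 381 to 477 CPM in CD3-poor cells. B cell markers summed to 160 to 197 CPM in CD3-rich and 126 to 228 CPM in CD3-poor cells, and macrophage markers to 126 to 310 and 138 to 156 CPM. The part of these cells in the other results was not tested beyond the counts given here.

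The CD3-rich cells were then divided by receptor. A gamma-delta receptor class (83 cells; 38, 18 and 27 per mouse) had at least 2 Trdc UMIs and none of Trac, and an alpha-beta receptor class (389 cells; 178, 74 and 137) at least 2 UMIs of Trac, Trbc1 and Trbc2 together and none of Trdc. The other 71 cells were left unassigned, and 64 of them had both Trac and Trdc UMIs. Cells with both had a median of 9005 UMIs (9004.5) and a median CD3 sum of 26, against 8755 and 22 in all CD3-rich cells. The part of doublets among them was not tested. Since beta constant RNA was also present in 97.4% of CD3-poor cells, the alpha-beta rule leans on Trac, of which 354 of the 389 cells had a UMI. Beta constant UMIs were found in all 83 gamma-delta receptor cells as well, and alpha V UMIs in 15 of them. In these 15 cells most such UMIs lay on Trav13-4-dv7 (9 of 22) and Trav15-1-dv6-1 (7 of 22), segments that delta chains can also use. Beta V UMIs were found in 12 of the 83 gamma-delta (14.5%) and 95 of the 389 alpha-beta receptor cells (24.4%). The gamma-delta receptor class is thus not free of rearranged beta chain segments.

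**Figure D4:**
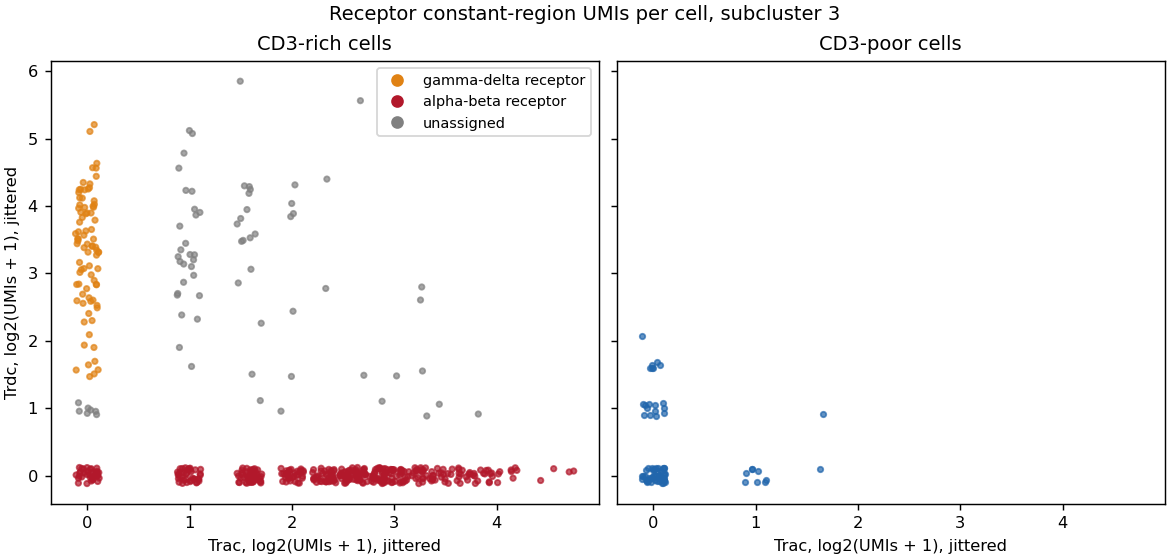
Trac (x axis) against Trdc (y axis) UMIs of single cells, as log2 of UMIs plus 1 with a small random shift so that cells do not hide each other, for CD3-rich cells (left; orange gamma-delta, red alpha-beta, grey unassigned) and CD3-poor cells (right, blue). High Trdc values occur in CD3-rich cells with no Trac UMI and in cells with both, whereas no CD3-poor cell has more than 3 Trdc or 2 Trac UMIs.

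Gamma chain genes, Klrc1 and Xcl1 were higher in gamma-delta than in alpha-beta receptor cells, and Ikzf2, Klra6 and ribosomal protein genes were lower. Of 5535 tested genes 47 (0.849%) passed, 15 higher (0.271%) and 32 lower (0.578%) in gamma-delta receptor cells, with Trdc, Trac, Trbc1 and Trbc2, which made the classes, left out. Classes without overlap over the mice were found for 13.8% of tested genes (8.49% higher and 5.29% lower). Of the 32 lower genes 22 were ribosomal protein genes, at -0.43 to -0.19. Their share of UMIs per cell had a median of 29.2% in gamma-delta and 31.8% in alpha-beta receptor cells. Without the mouse as a block 6 genes were higher and 3 lower, and DESeq2 called 5 and 2. Leaving out mouse 1 gave 7 and 5, mouse 2 15 and 13 and mouse 3 52 and 103.

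Gamma chain genes rose in gamma-delta receptor cells, 4 of 4 tested. Tcrg-C1 had 181, 196 and 92.0 CPM in gamma-delta and 23.8, 22.7 and 8.47 CPM in alpha-beta receptor cells, without overlap (2.99 ± 0.24, adjusted p = 2.3e-08). Tcrg-C4 had 187, 175 and 161 against 34.4, 61.1 and 41.5 CPM (1.98 ± 0.21, adjusted p = 4.7e-06), and Tcrg-C2 201, 239 and 129 against 56.7, 75.3 and 49.1 CPM (1.59 ± 0.19, adjusted p = 2.3e-05). Gamma V segment UMIs were found in 44 of 83 gamma-delta and in 88 of 389 alpha-beta receptor cells. Trgv2 held 65 of 90 such UMIs in the former and 113 of 142 in the latter. Delta V segment UMIs were found in 22 of 83 and 8 of 389 cells.

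Among NK receptor genes Klrc1, which encodes NKG2A, had 348, 351 and 299 CPM in gamma-delta and 129, 149 and 144 CPM in alpha-beta receptor cells (1.19 ± 0.15, adjusted p = 3.1e-05). The classes did not overlap. For comparison, CD3-poor cells had 296, 344 and 252 CPM. Klra6 was lower, at 83.4, 56.1 and 55.2 against 169, 162 and 157 CPM (-1.33 ± 0.21, adjusted p = 0.00097), a call lost by DESeq2. Klra9, another Ly49 gene, was at -1.73 ± 0.34 (adjusted p = 0.0099), -2.68 without mouse 3 and not past the threshold without mouse 1, without the block, by DESeq2 or at matched depth, and all of its UMIs in gamma-delta receptor cells came from 4 cells.

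Ikzf2 was lower in gamma-delta receptor cells, at 368, 210 and 331 against 589, 722 and 619 CPM (-1.08 ± 0.15, adjusted p = 0.00015), yet higher in every mouse than in its CD3-poor cells. Cd8a was at -1.57 ± 0.35 (adjusted p = 0.025), a call lost in 5 of 10 alternatives: without mouse 1, without mouse 2, without the block, by DESeq2 and at a threshold of 0.01. Plac8, a small cysteine-rich protein gene, rose by 0.86 ± 0.16 (adjusted p = 0.0041), and Rora, a factor of innate lymphoid and type 17 cells, by 1.41 ± 0.31 (0.023). Both lost the call by DESeq2 and without the block, and Rora also without mouse 1, at matched depth and at a threshold of 0.01. Ifitm2, an interferon-induced membrane protein gene, was lower (-2.13 ± 0.35, adjusted p = 0.0021), a call lost without mouse 1, without the block and by DESeq2. Gzmc was called lower (-3.27 ± 0.22), but 90.6% of its UMIs in alpha-beta receptor cells came from 5 cells, and it stood at 0.02 against alpha-beta receptor cells with at least 2 Trac UMIs.

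Of 22 tested NK identity genes, 1 was higher (Klrc1) and 3 were lower (Klra6, Klra7 and Klra9) in gamma-delta receptor cells, and of 6 tested innate adaptor and Fc receptor genes none passed. Ncr1 had 147, 126 and 124 CPM in gamma-delta and 130, 52.6 and 91.5 CPM in alpha-beta receptor cells, which overlap (0.39 ± 0.21, adjusted p = 0.75). Tyrobp was at -0.05 ± 0.13 (adjusted p = 0.99), Fcer1g at 0.05 ± 0.10 (0.98) and Klrb1c at 0.25 ± 0.16 (0.83). Gzmb was at -0.50 ± 0.18 (0.37) and Prf1 at -0.21 ± 0.25 (0.96). A p that misses the threshold does not show that these levels are alike. An Ncr1 UMI was found in 42.2% of gamma-delta and 21.3% of alpha-beta receptor cells, and after thinning in 33.3 and 19.5%.

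Type 1 innate lymphoid cell genes were higher in gamma-delta receptor cells for 4 of 13 tested members (Tcrg-C4, Rora, Xcl1 and Tmem176b) and lower for 1 (Ikzf2). Xcl1 had 2199, 1150 and 1210 CPM in gamma-delta and 1150, 641 and 741 CPM in alpha-beta receptor cells. It was higher in 3 of 3 mice, at 0.77 ± 0.09 (adjusted p = 7.5e-06), a call lost without the block, and 5 cells held 49.9% of its gamma-delta UMIs. Tmem176b, a membrane protein gene, had 152, 91.2 and 32.2 against 22.3, 22.7 and 34.7 CPM, which overlap, and was lower in mouse 3. Its value was 1.82 ± 0.35 (adjusted p = 0.0084) and 2.47 without mouse 3. The call was lost without mouse 1 (0.84), by DESeq2 and at matched depth, and 87.7% of its gamma-delta UMIs came from 5 cells.

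**Figure D5:**
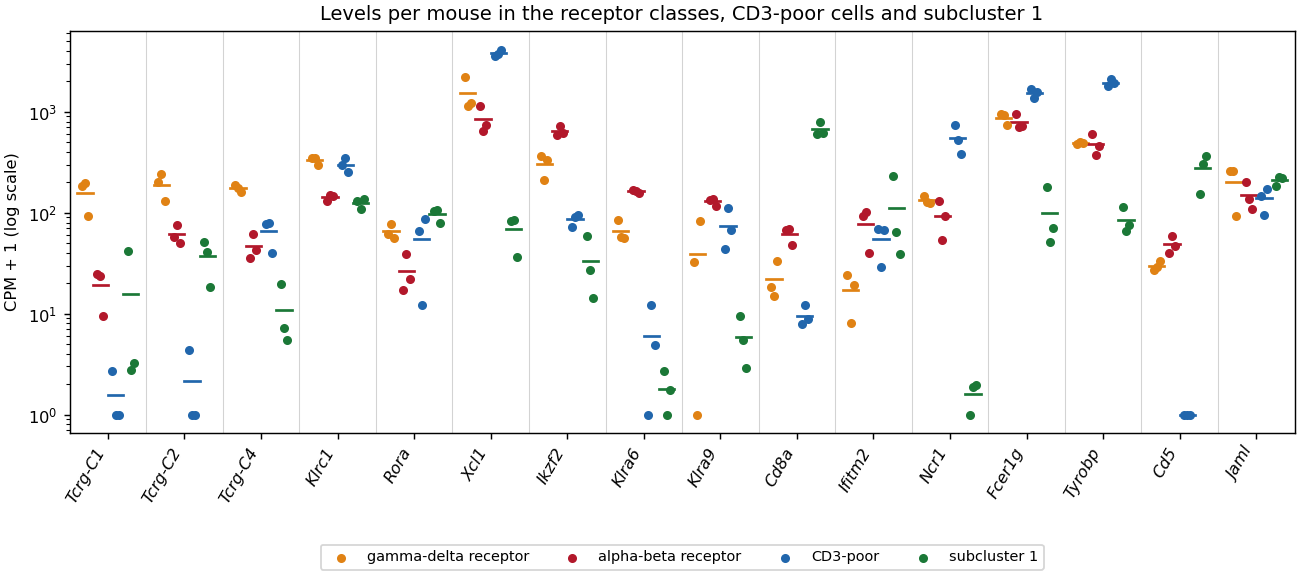
Levels in CPM plus 1 (log axis) for each mouse in gamma-delta receptor (orange), alpha-beta receptor (red) and CD3-poor cells (blue) and in subcluster 1 (green, not tested), with the mean of 3 mice as a bar. Ncr1, Fcer1g and Tyrobp did not pass the threshold between the receptor classes; their means there are lower than in CD3-poor cells and above subcluster 1.

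Each receptor class was also set against the CD3-poor cells, comparisons added after the data were seen that share the same CD3-poor counts. Alpha-beta receptor cells differed in 183 genes higher and 197 lower of 6234 tested, and gamma-delta receptor cells in 77 higher and 92 lower of 3236 tested. Trac, Trbc1, Trbc2 and Trdc, which made the receptor classes, were not left out here, so their own values follow in part from the selection. For alpha-beta receptor cells, 164 and 184 of the called genes were also called for all CD3-rich cells, and for gamma-delta receptor cells 64 and 85. Klrc1 was lower in all CD3-rich cells (-0.67 ± 0.16, adjusted p = 0.018), a call lost in 6 of 19 alternatives, among them DESeq2, without mouse 1, matched depth and without cells with UMIs of other cell types. It was at 0.19 (adjusted p = 0.70) in gamma-delta receptor cells against CD3-poor cells. Restricting the CD3-poor class to cells with 0 CD3 UMIs gave 161 genes higher and 179 lower. Leaving out its 10 cells with a Trac UMI gave 177 and 194, and Trac was not taken out of that test.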

How the data were processed

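Cells sorted from tumours of 3 mice were measured in 1 library. Per the submitters' processing notes, Cell Ranger 3.1.0 and Seurat 3.1.5 were used with the mm10 genome; further steps are not given in the sources used here. The authors deposited UMI counts per gene and cell with no normalization, and an annotation with total counts, percent mitochondrial and ribosomal UMIs, hashtags and cluster numbers. The annotation's species entry reads human, while the labels and gene symbols are mouse. The antibody tag table was not used.

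Each class was summed within each mouse, giving 5347031 UMIs over the CD3-rich and 1019767 over the CD3-poor class (180259 to 2712758 per mouse and class). The test was the quasi-likelihood F test of edgeR 4.0.16 under R 4.3.3, after filterByExpr and TMM, with a term for the mouse. P-values were adjusted over every tested gene (Benjamini-Hochberg). A class of a mouse under 10 cells was left out. The paired samples are the same animal. Deviations of a mouse's classes from the class means correlated over genes at 0.16, -0.04 and 0.17 for CD3-rich and CD3-poor cells, and at 0.13, 0.08 and 0.07 for the receptor classes. In counts simulated for the CD3 comparison (6503 genes), 46.7% of genes changed by a log2 of 1 and 95.6% of those changed by 2 were recovered. The simulation gave every gene the same dispersion and the mice no differences. These shares therefore do not give the power for genes that vary more, such as those carried by few cells. A count of 0 was taken as at most 3 UMIs over the class. Floors cover counting error only. Thinning drew 6201 UMIs per cell, the 10th percentile of the subcluster, and left out shallower cells (57 CD3-rich and 6 CD3-poor). Shares after thinning kept the original classes. The test in thinned cells set the classes anew, with a thinned CD3 sum of 3 or more against 0. It used 237, 101 and 146 CD3-rich and 30, 12 and 21 CD3-poor cells of mice 1, 2 and 3. Its results therefore mix the change of depth with a change of rule.

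Named genes were the 12 per direction (8 for the receptor classes) with the largest change among those of the same sign in 3 mice and averaging 30 CPM or more where higher, up to 4 members of each list by p, and a fixed set; Klra1, Klra7, Klrk1, Klrd1, Irf8, Sit1, Dapl1, Il6st, Lat, Sh2d2a, Klf2, Ccl5, Hcst, Kit, H2-Aa and Klrc1 in the CD3 comparison, and Xcl1 and Tmem176b between the receptor classes, were added after their values were seen. The members and gene lists were chosen with earlier results of these data known. The split and the tested genes come from the same cells.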

Additional observations from a re-analysis of the deposited data

How the results depend on the processing

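Limits first: 13 CD3-poor cells in mouse 2 and 3 mice in all set the precision, and fewer genes were testable in smaller classes. Counts are given as higher then lower. For CD3-rich against CD3-poor cells (185 and 212), no filter on low counts gave 372 and 291, DESeq2 61 and 113, a threshold of 0.01 84 and 121, depth-matched cells 142 and 113, thinned cells 127 and 126, removal of cells with a Trdc UMI (mice 1 and 3 only) 278 and 246, and gamma-delta receptor cells alone 77 and 92; leaving out a mouse gave 32 to 241 and 67 to 250. For the receptor classes (15 and 32), no filter gave 23 and 96, DESeq2 5 and 2, a threshold of 0.01 9 and 15, depth-matched cells 6 and 3, and alpha-beta cells with at least 2 Trac UMIs 26 and 59; leaving out a mouse gave 7 to 52 and 5 to 103. Without the mouse as a replicate block the pairing was ignored, and the counts were 167 and 196 for the CD3 classes and 6 and 3 for the receptor classes. Of 87 named genes called between the CD3 classes, 49 kept their direction and call under every alternative in which they were tested. Of 18 between the receptor classes, 5 did. Some alternatives selected cells by receptor or class II UMIs without leaving those genes out of the test. Signs turned for H2-Ab1 and H2-Aa without cells with UMIs of other cell types (0.11 and 0.20; mice 1 and 3 only), for H2-Ab1, H2-Aa, Cd74 and H2-Eb1 without cells with a Trdc UMI (0.42, 0.48, 0.13 and 0.16), and for H2-Ab1 and H2-Aa without cells with class II UMIs (0.05 and 0.20). They also turned for Tcrg-C4 without cells with a Trdc UMI (-0.94), Klrc1 in gamma-delta receptor cells (0.19), Gzmc against alpha-beta cells with 2 Trac UMIs (0.02) and Trdc in alpha-beta receptor cells (-7.47), which were chosen to lack it. Cells with class II UMIs were likewise removed by the genes then compared. Apart from that removal and the Trdc case the cause was not tested.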
